A study of Mus musculus with 2 samples.

Results

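The B-lymphoid nuclei of this library were 174 of the 4481 barcodes that held at least 500 non-mitochondrial UMIs (unique molecular identifiers, each counting 1 captured RNA molecule) and at least 1000 ATAC counts, a share of 3.88% (exact Clopper-Pearson 95% interval 3.34 to 4.49). They were chosen by their RNA: the UMIs of Pax5, Blnk, Aff3, Bach2, Ighm, Cecr2 and Il7r together had to make up at least 0.3% of a barcode's non-mitochondrial UMIs, with at least 4 UMIs from at least 3 of these 7 genes. No limit was set on mitochondrial RNA. The lowest member had a share of 0.304% (19 UMIs from 3 genes among 6243), the median member 1.09% and the highest 3.34%, and the nearest barcodes outside had 0.292% and 0.290%. A further 41 barcodes passed the share but not the number of UMIs or genes.

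The mice, 21 days old, carried Prrx1-cre, which is active in the limb skeletal lineage, and 1 R26R-tdTomato reporter allele. Femurs without the distal growth plate and the proximal end were dissociated with enzymes, tdTomato+ cells were sorted, and about 15000 nuclei were loaded for 10x Multiome, which reads RNA and open chromatin (ATAC) from the same nucleus. The sample is labelled as stromal cells, and B-lymphoid nuclei go against that label. For its separate RNA and ATAC assays the study pooled sorted cells of male and female littermates; for this library neither the pooling nor the number of mice is given in the sources used here. There was 1 RNA library and 1 ATAC library from the same nuclei, every nucleus carried the same genotype, and the comparisons below are between groups of nuclei within these libraries, with no replicate and hence no test: all intervals cover counting error only.

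B lymphocytes are made in the marrow from lymphoid progenitors under the control of Ebf1, E2A (Tcf3) and Pax5. A pro-B cell recombines its heavy chain genes with the RAG recombinase and terminal transferase, tests the new heavy chain as a pre-B-cell receptor with the surrogate light chain (Vpreb1 and Igll1), divides, recombines a light chain and then places IgM on its surface. In mice, interleukin 7 made by reticular stromal cells drives the early steps.

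The B-lymphoid nuclei were shallow, with a median of 1201 non-mitochondrial UMIs (504 to 15854) and 30383 ATAC counts, against 1727 UMIs and 34233 ATAC counts in the other 4307 barcodes, called the rest here. Mitochondrial RNA made up a median of 14.6% of all UMIs in the B-lymphoid nuclei and 16.6% in the rest. For comparison, nuclei were also taken that passed the same thresholds with 7 markers of granulocytes (85 nuclei), macrophages (173), erythroid cells (139) or reticular stroma (633). Free RNA was read from 62603 barcodes with few UMIs (median 229), and its profile is given beside a value where it bears on it. RNA levels are CPM, UMIs summed over the nuclei of a group and scaled to a total of 1000000 non-mitochondrial UMIs. Group names rest on these markers, not on a deposited annotation.

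The label was checked against genes that the rule did not use. The lists of B-cell transcription factors, receptor chains and signalling genes were used without Ebf1, Sox4, Id3, Foxo1, Tcf3 and Erg, genes known from stroma. The 34 other genes of these lists, all outside the rule, summed to 10350 CPM (9988 to 10720) in the B-lymphoid nuclei. They summed to 494 CPM (482 to 506) in the rest and 262 CPM in reticular nuclei. With the stromal genes kept, the 17 transcription factors alone had 11210 CPM in the B-lymphoid nuclei, 1208 CPM in the rest and 3000 CPM in reticular nuclei. At least 1 UMI of the 34 genes was found in 173 of the 174 nuclei. Of 30 such genes with at least 20 UMIs over both sides, 29 were at least 2-fold higher in the B-lymphoid nuclei and none was lower, where 32.0% of all 13578 genes passed the same fold upward and 19.4% downward. Because the same RNA chose the nuclei, these counts describe the members and do not test the label. The shares of all genes, 32.0% upward and 19.4% downward, are also the background for the RNA counts of each list against the rest below. The accessibility values further on come from an assay that the rule did not read.

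The genes of the rule set the scale. Bach2, a transcriptional repressor of lymphocytes, gave 41.2% of their 3526 UMIs, with 4844 CPM in the B-lymphoid nuclei and 80.8 CPM in the rest. Ighm, the constant part of the IgM heavy chain, stood at 1524 and 20.5 CPM, and Blnk, the adaptor that links the pre-B-cell receptor to its kinases, at 940 and 19.3 CPM. Pax5, the factor that fixes B-cell identity, was counted in 99 of 174 nuclei (740 CPM) and stood at 4.06 CPM in the rest. Membership was therefore not tied to Pax5, and 75 members held no UMI of it. Il7r, the chain that binds interleukin 7, had 413 CPM in the B-lymphoid nuclei and 2.56 CPM in the rest, Aff3 1780 and 50.5 CPM, and Cecr2 1514 and 15.5 CPM.

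**Figure D1:**
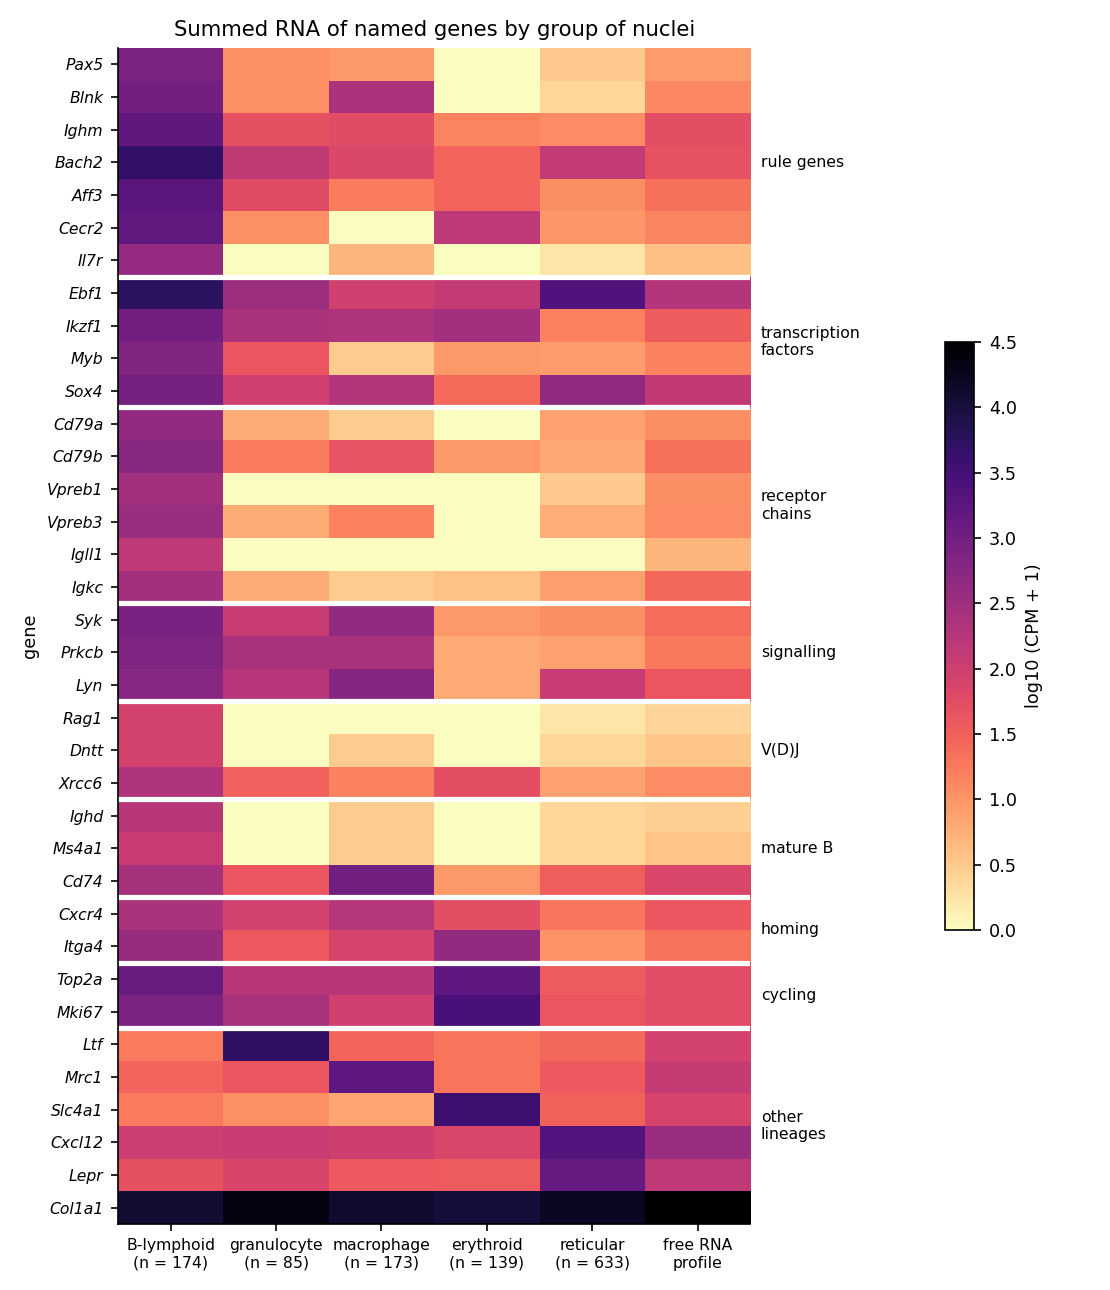
Summed RNA of named genes (rows) in B-lymphoid nuclei, 4 comparison groups of nuclei and the free RNA profile (columns), coloured by log10 of CPM plus 1. The B-lymphoid column is dark for the B-cell genes, while Ltf, Mrc1, Slc4a1, Cxcl12 and Lepr are dark each in their own group and Col1a1 is high in every column.

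Among the transcription factors outside the rule, 15 of 17 were at least 2-fold higher in the B-lymphoid nuclei than in the rest, and Spi1 (log2 ratio 0.92) and Id3 (-0.35) lay within 2-fold. Ebf1, which opens chromatin at B-cell genes, was the most abundant, with 5761 CPM in the B-lymphoid nuclei, 577 CPM in the rest and 2212 CPM in reticular nuclei. Ikzf1 (Ikaros) had 957 CPM in the B-lymphoid nuclei and 43.4 CPM in the rest, and Myb 630 and 13.6 CPM. The largest ratios in this list were those of Ikzf3 (Aiolos, log2 7.23), Spib (7.05), Pou2af1, the partner of octamer-binding factors (6.24), and Irf4 (6.04). Sox4, also high in stroma, had 907 CPM in the B-lymphoid nuclei, 268 CPM in the rest and 468 CPM in reticular nuclei.

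All 6 receptor chains with enough UMIs were higher. Cd79a and Cd79b, the signalling chains of the receptor, had 447 CPM (counted in 71 nuclei) and 537 CPM (86 nuclei), against 5.94 and 10.9 CPM in the rest. The surrogate light chain genes were carried by fewer nuclei: Vpreb1 by 26 (277 CPM against 5.57 CPM in the rest) and Igll1 by 17 (143 against 2.26 CPM). Igll1 was at 0 in the granulocyte, macrophage, erythroid and reticular nuclei. Of the light chains, kappa (Igkc) was counted in 45 nuclei (86 UMIs, 287 CPM) and lambda (Iglc1, Iglc2 and Iglc3) in 10 (21 UMIs). V gene UMIs were few, 21 for kappa in 16 nuclei, 4 for lambda and 3 for the heavy chain, and reads of near-identical V genes or lambda constant genes cannot be told apart with certainty.

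All 13 genes of receptor signalling were higher in the B-lymphoid nuclei than in the rest. Blk, a kinase of the receptor, and Cd72, an inhibitory surface receptor of B cells, had log2 ratios to the rest of 6.61 and 5.88. Some of these genes are shared with myeloid cells: the kinase Syk had 784 CPM in the B-lymphoid nuclei and 428 CPM in macrophage nuclei, Lyn 570 and 616 CPM, and the phosphatase Inpp5d 460 and 434 CPM.

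The enzymes of V(D)J recombination were detected at a low level. Rag1, a subunit of the recombinase, had 25 UMIs in 20 nuclei (83.4 CPM, against 0.827 CPM in the rest), and Rag2, the other subunit, 8 UMIs in 7 nuclei. Dntt, the terminal transferase that adds bases at the joins, also had 25 UMIs, in 10 nuclei. Of 9 tested genes of the list 6 were higher and 3 (Xrcc4, Xrcc5 and Nhej1) lay within 2-fold. The end-joining factor Xrcc6 (Ku70) had 207 CPM in the B-lymphoid nuclei and 13.5 CPM in the rest.

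Il7r is a gene of the rule, so its RNA ratio comes from the RNA that chose the members. Its partners, outside the rule, mostly lay within 2-fold. Of 8 genes of interleukin 7 and TSLP signalling only Il2rg, the common gamma chain, passed 2-fold (5 UMIs, log2 1.71, interval -0.08 to 2.87), and Jak1 (230 CPM against 225 CPM in the rest) and Stat5b (96.7 against 58.3 CPM) lay within it. The list's median log2 ratio was -0.10, beside 0.40 over all genes tested.

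Further lists covered the stages before and after these. Of the progenitor genes, 5 of 7 were higher, among them Ly6d, a lymphoid progenitor marker (41 UMIs in 23 nuclei, 137 against 2.78 CPM in the rest), Cd93 (243 against 23.8 CPM), Kit (11 UMIs) and Flt3 (11 UMIs). Mpo, a myeloid enzyme, was the fifth (log2 1.01), but 45 of its 56 UMIs came from 1 nucleus that lay outside the main chromatin clusters described further on. Without the 7 members outside those clusters its log2 ratio was -1.15. All 14 tested genes of immature and mature B cells were higher than in the rest. Ighd, the IgD constant region, was counted in 35 nuclei (167 against 3.31 CPM in the rest) and Ms4a1 (CD20) in 18 (35 UMIs, 117 CPM). Cd74, the invariant chain, was counted in 37 (263 against 68.3 CPM, with 982 CPM in macrophage nuclei). The whole list summed to 1424 CPM in the B-lymphoid nuclei, 358 CPM in the rest and 1927 CPM in macrophage nuclei.

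Plasma cell genes were mostly at 0. Jchain, Tnfrsf17, Derl3, Igha, Ighg1, Ighg2b and Ighg2c had no UMI in 299941, which allows up to 10.0 CPM (3 UMIs), and Ighg3 and Ighe had none either. Mzb1, a chaperone of the IgM heavy chain, was the 1 of 4 tested genes of this list that was higher, where 32.0% of all genes were. It had 51 of the list's 76 UMIs, in 32 nuclei (170 against 4.36 CPM in the rest). The 11 genes of the list summed to 253 CPM (200 to 317) in the B-lymphoid nuclei, 98.0 CPM in the rest and 189 CPM in macrophage nuclei. Among homing genes 5 of 8 were higher than in the rest, where 32.0% of all genes were. They included Cxcr4, the receptor for the reticular chemokine Cxcl12 (233 against 29.0 CPM), and the integrin chain Itga4 (380 against 32.6 CPM). Itgb1 and Cd44 lay within 2-fold. The 8 homing genes summed to 1087 CPM in the B-lymphoid nuclei, 573 CPM in the rest and 1570 CPM in macrophage nuclei. In the BCL2 family Bcl2l1 (140 against 26.7 CPM) and Bmf (9 UMIs) were higher and the other 6 genes lay within 2-fold. These 2 of 8 were not above the 32.0% of all genes that passed upward. The 8 genes summed to 560 CPM in the B-lymphoid nuclei, 345 CPM in the rest and 809 CPM in macrophage nuclei.

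All 12 cycling genes were higher in the B-lymphoid nuclei than in the rest, and lower than in erythroid nuclei as a sum (3734 against 7602 CPM). Top2a had 1210 CPM in the B-lymphoid nuclei, 111 CPM in the rest and 1626 CPM in erythroid nuclei, and Mki67 760, 137 and 2762 CPM. The cycling UMIs were not spread evenly: 55 nuclei held 5 or more and 103 held 0 or 1. The 55 also had more UMIs (median 2250 against 945), so depth moves with this split and its part was not tested. Between these sets, 19.1% of 2697 genes were at least 2-fold higher in the cycling nuclei and 6.71% lower. Beside that background, Ms4a1 had 1 UMI in the cycling nuclei and 33 in the others, Rag1 3 and 19, Cd74 18 and 59 (log2 -2.17), and Il2ra, the interleukin 2 receptor alpha chain known from small pre-B cells in mice, 5 and 20 (log2 -2.38, interval -4.25 to -1.03). Higher in the cycling nuclei were Dntt, with 22 and 3 UMIs (log2 2.20, 0.66 to 4.77), Vpreb1, with 48 and 15 (log2 1.16, 0.33 to 2.14), and, within 2-fold, Il7r, with 80 and 36 (log2 0.66, 0.08 to 1.28). Because Il7r is a gene of the rule, the choice of members bears on its values here. Il2ra was picked after its values were seen.

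To compare detection at equal depth, each nucleus was thinned to 500 UMIs, which left no nucleus out. Of genes outside the rule, Cd79a was then counted in 22.4% of B-lymphoid nuclei, Cd79b in 20.1% and Igkc in 10.9%. In erythroid nuclei, which should lack these genes and were not shallower (median 1560 against 1201 UMIs), Cd79b was counted in 0.719% and Cd79a and Igkc in 0 of 139, with an upper 95% bound of 2.62%. The rule genes are given as a description: Bach2 was counted in 78.7% of B-lymphoid nuclei and 0 erythroid nuclei, Pax5 in 27.6% (56.9% before thinning) and 0, Aff3 in 55.8% and 0.719%, Ighm in 51.2% and 1.44%, and Cecr2 in 49.4% and 4.32%. Ebf1 was counted in 83.9% of B-lymphoid nuclei, 2.88% of erythroid nuclei and 55.6% of reticular nuclei.

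Markers of other cells were mostly low. Of 16 T and NK cell markers 15 were at 0, among them Cd3e, Trac and Cd8a, and the other, Tcf7, had 2 UMIs in 1 nucleus. No T-cell receptor gene had a UMI. The 7 granulocyte markers summed to 147 CPM in the B-lymphoid nuclei, 21300 CPM in granulocyte nuclei and 454 CPM in free RNA, and the 7 macrophage markers to 120 CPM in the B-lymphoid nuclei and 9550 CPM in macrophage nuclei. The 7 erythroid markers gave 15 UMIs in the B-lymphoid nuclei and 9865 CPM in erythroid nuclei. Free RNA at the upper share of 25.6% derived in the next paragraph would bring 116 CPM of the granulocyte, 128 CPM of the macrophage and 33.7 CPM of the erythroid markers, each inside the counting interval of the B-lymphoid sum. Of 7 endothelial markers 2 passed 2-fold upward and 3 downward, where 32.0% and 19.4% of all genes did. The 2 were Pecam1 (CD31), with 88 UMIs in 51 nuclei (293 against 41.0 CPM in the rest), and Kdr, with 2 UMIs (log2 1.22, -2.17 to 2.85). Cdh5, Tek and Ptprb were at 0 and Emcn and Flt1 had 1 UMI each.

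Stromal and bone RNA was present in every B-lymphoid nucleus. Col1a1 gave 3475 UMIs and was found in all 174, at 11590 CPM against 34290 CPM in the rest and 45220 CPM in free RNA. If all of it were free RNA, free RNA would make up 25.6% of the UMIs of these nuclei. The 7 reticular markers summed to 347 CPM (283 to 420) in the B-lymphoid nuclei, 8554 CPM in reticular nuclei and 933 CPM in free RNA. The defining markers Cxcl12 and Lepr stood at 107 and 46.7 CPM. At the upper share of 25.6%, free RNA would bring 239 CPM of the reticular markers, below the B-lymphoid interval. Of their 104 UMIs in the B-lymphoid nuclei, 28 came from 1 nucleus. The part of such RNA in the other values was not tested.

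RNA of the tdTomato transgene, on which the cells had been sorted, was low. It gave 12 UMIs in 11 of the 174 nuclei, 40.0 CPM (20.7 to 69.9), against 247 CPM in the rest, 289 CPM in reticular nuclei and 55.4 CPM in free RNA. Erythroid and macrophage nuclei, which are blood cells too, had 34.7 and 67.8 CPM. At the upper share of 25.6%, free RNA would bring 14.2 CPM of tdTomato, below the B-lymphoid interval. Nuclei of both sexes were present: 44 B-lymphoid nuclei held UMIs of Xist alone, 40 of Y-linked genes alone, 4 of both and 86 of neither.

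Outside every list, the 15 genes with the highest ratio to the rest were H2-Ob, Siglecg, Gm30211, Klhl14, Slco4a1, Tmem163, Dpp4, 1700027J07Rik, 1810059H22Rik, Tmem108, Jakmip1, Cacna1e, Chst3, Rhoh and Ptprcap, with log2 ratios of 6.10 to 7.66. Siglecg, an inhibitory lectin of B cells, had 63 UMIs in 39 nuclei (210 against 1.28 CPM in the rest). H2-Ob, a subunit of the class II chaperone H2-O, had 20 UMIs in 16 nuclei and 0.301 CPM in the rest. Rhoh, a GTPase of blood cells, was the most widely counted (79 nuclei, 477 against 5.94 CPM). Dpp4 (CD26), Tmem108 and Cacna1e, a calcium channel subunit, had 327, 457 and 293 CPM in the B-lymphoid nuclei and under 5 CPM in the rest.

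Accessibility was measured independently of the rule, as ATAC counts of peaks over each gene and 3 kb upstream of its start, scaled to 1000000 ATAC counts (CPM). Over the 34 B-cell genes outside the rule, again without the genes known from stroma, the B-lymphoid nuclei had 3876 CPM (3827 to 3926). The rest had 1072 CPM, granulocyte nuclei 1941 CPM, macrophage 2253 CPM, erythroid 1071 CPM and reticular nuclei 670 CPM. Nucleus by nucleus the B-lymphoid values ran from 0 through a median of 3940 to 7694 CPM, and 173 of 174 lay above the median of the rest (829 CPM). All 17 transcription factors, with the stromal genes kept, had 2733 CPM in the B-lymphoid nuclei, 1112 CPM in the rest and 1164 CPM in reticular nuclei. Of 33 windows of the 34 genes with counts enough, 28 were at least 2-fold more accessible in the B-lymphoid nuclei and none less. Of 24491 windows of all genes, 9.6% passed upward and 27.9% downward. The 7 reticular markers went the other way, with 86.1 CPM in the B-lymphoid nuclei and 688 CPM in reticular nuclei.

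**Figure D2:**
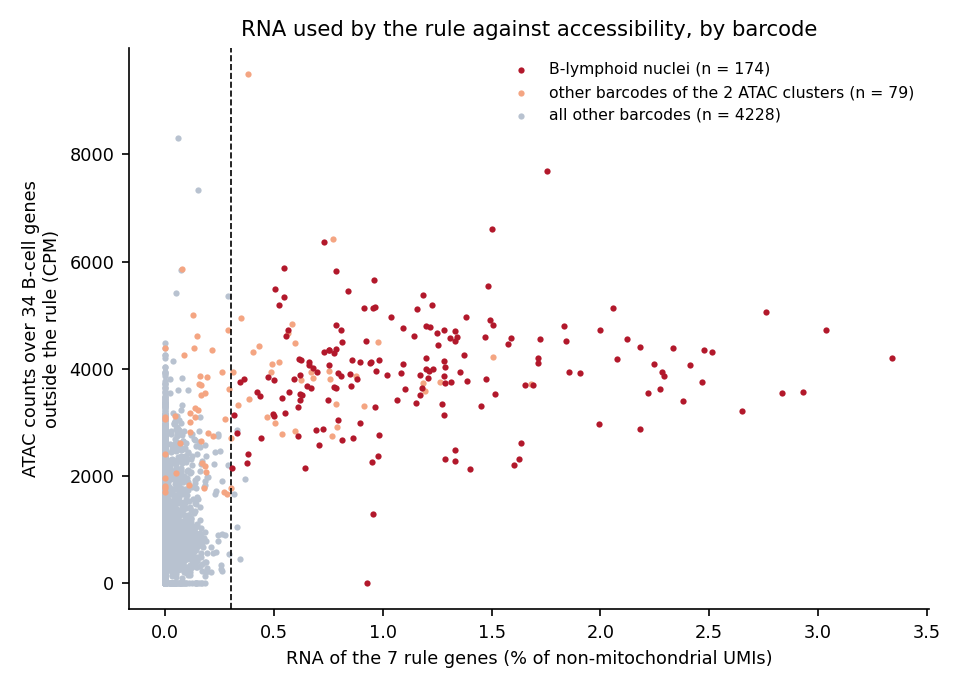
Each point is 1 barcode, with the RNA share of the 7 rule genes on the x axis (percent of non-mitochondrial UMIs, dashed line at 0.3%) and ATAC CPM over 34 B-cell genes outside the rule on the y axis. The 174 B-lymphoid nuclei (red) have a median of 3940 CPM. Above it lie 23 of the 79 other barcodes in their chromatin clusters (orange) and 14 of the remaining 4228 (grey).

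The windows differed in how far they followed the RNA. Cd79a (log2 5.04), Igkc (5.42), Ms4a1 (4.88), Igll1 (4.29), Dntt (3.84), Ikzf3 (3.76) and Spib (3.45) were far more accessible in the B-lymphoid nuclei than in the rest. For some genes of high RNA ratio it was within 2-fold: Bach2 had a log2 ratio of 0.13 in accessibility and 5.91 in RNA, Aff3 0.50 and 5.14, and Ebf1 0.15 and 3.32. Bach2 and Aff3 are genes of the rule, so their RNA ratios come from the RNA that chose the members. Ebf1 is not. Within 1 kb of the start the accessibility ratio was 4.90 for Aff3, 1.26 for Bach2 and 0.53 for Ebf1. Rag2 gave -0.74 over its window and 4.34 within 1 kb of its start. For these genes the value therefore depended on which peaks were counted.

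The promoter of Cd79a (RefSeq, GRCm38.p6, chr7:24897247-24897546, + strand, 250 bases before to 50 after the start) and that of Igll1 (chr16:16863936-16864235, - strand) are shown because their genes combined high B-lymphoid RNA with accessibility above that of the rest; capitals mark CAGGTG, the E-box letters bound by E2A, on either strand, and in Igll1 also the RUNX letters TGTGGTT. The E-box letters were in 20.2% and the RUNX letters in 5.27% of 32851 promoters of this length, so either match alone is common. Promoters were found for 10 of 13 genes sought in the RefSeq table.
Cd79a promoter: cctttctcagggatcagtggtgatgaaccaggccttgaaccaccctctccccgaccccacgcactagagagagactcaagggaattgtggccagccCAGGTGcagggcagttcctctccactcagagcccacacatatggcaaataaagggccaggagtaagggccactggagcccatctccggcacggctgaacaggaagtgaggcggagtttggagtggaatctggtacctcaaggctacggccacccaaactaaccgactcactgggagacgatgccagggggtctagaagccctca
Igll1 promoter: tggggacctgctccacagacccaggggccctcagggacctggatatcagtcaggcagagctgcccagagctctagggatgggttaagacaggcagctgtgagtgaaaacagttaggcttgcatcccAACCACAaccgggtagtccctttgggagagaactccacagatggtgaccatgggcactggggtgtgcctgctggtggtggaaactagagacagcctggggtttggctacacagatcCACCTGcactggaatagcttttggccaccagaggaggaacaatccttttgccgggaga

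The immunoglobulin loci stood out. Peaks across the kappa V genes (chr6:67555497-70704177, 65 peaks) had 681 CPM in the B-lymphoid nuclei and 15.7 CPM in the rest, those of the lambda locus (chr16:19061618-19260859, 9 peaks) 122 and 7.76 CPM, and those of the heavy chain V genes (chr12:113572927-116010093, 41 peaks) 163 and 28.7 CPM. For the heavy chain locus the granulocyte nuclei had 269 CPM, above the B-lymphoid value, and only 36.5 CPM was measured in macrophage nuclei.

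The receptor chain RNA split the nuclei, and their chromatin was then compared. UMIs of the surrogate light chain (Vpreb1, Vpreb2, Igll1) without a light chain were found in 24 nuclei, a light chain without surrogate in 48, both in 6 and neither in 96. In the surrogate set the kappa V peaks had 270 CPM (239 to 303) and in the light chain set 876 CPM (830 to 925), and the heavy chain V peaks had 307 (274 to 342) and 124 CPM (107 to 143). The RNA-defined sets thus had opposite orders at the 2 loci, and at neither did the counting intervals overlap. The set with surrogate light chain was the deeper of the 2 (median 1804 against 1288 UMIs and 41106 against 29148 ATAC counts).

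RNA outside the defining genes also differed between these sets, where 8.08% of 1324 genes were at least 2-fold higher in the surrogate set and 10.5% lower. Dntt had 18 UMIs in the surrogate set and 0 in the light chain set, at least 8.88-fold higher against a floor of 3 UMIs over the set, and Kit 9 and 0 (at least 4.44-fold). Both had under 20 UMIs over the pair and are not among the 1324. Lef1, a factor of pro-B cells in mice, had 1448 CPM in the surrogate set and 183 CPM in the light chain set (log2 2.94, 2.17 to 3.88), and Erg 380 and 24.4 CPM (21 and 2 UMIs, log2 3.67, 1.93 to 7.10). The other way, Ms4a1 had 0 and 25 UMIs (at least 5.63-fold lower in the surrogate set), Cd74 2 and 44, Ly6d 3 and 28, Ikzf3 9 and 51, and Bach2 stood at 3022 and 6099 CPM. Pax5 (log2 0.47, -0.08 to 1.01) and Blnk (0.06, -0.44 to 0.53) had intervals that include 0. Bach2, Pax5 and Blnk are genes of the rule, so the choice of members bears on their values in both sets.

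Clustering on ATAC alone, which used no RNA, put 167 of the 174 B-lymphoid nuclei (96.0%) into 2 of 25 clusters, 146 in a larger one of 211 barcodes and 21 in a smaller one of 35. Among the 79 other barcodes of these 2 clusters there was 1 reticular nucleus and no granulocyte, macrophage or erythroid nucleus. The members could not be counted here, because the comparison groups leave them out. Surrogate light chain UMIs were present in 19 of the 21 nuclei of the smaller cluster and 10 of the 146 of the larger one, and light chain UMIs in 2 and 49. The 21 were deeper than the 146 (median 1737 against 1148 UMIs and 40093 against 28782 ATAC counts). The part of depth was not tested. The split itself depended on the clustering: at a resolution of 0.5, or with 20 in place of 30 components, the 2 merged into 1 cluster, with 167 and 166 members, and at a resolution of 2.0 they held the same numbers of members as before, 146 and 21.

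RNA differed between the members of the 2 clusters. Of 2631 genes tested 12.2% were at least 2-fold higher in the members of the smaller cluster than in those of the larger one and 9.65% lower. All 25 UMIs of Dntt came from the smaller cluster (438 CPM, at least 31.5-fold higher than in the larger cluster, where none was counted). Igll1 had 702 CPM in the smaller and 13.9 CPM in the larger cluster, Vpreb1 1210 and 60.2 CPM, Erg 438 and 23.2 CPM and Lef1 1578 and 185 CPM. Lower in the smaller cluster were Ikzf3 (52.6 and 454 CPM), Igkc (52.6 and 348 CPM), Bach2 (1456 and 5950 CPM), Ms4a1 (1 and 34 UMIs) and the lymphoid progenitor marker Ly6d (1 and 37 UMIs, log2 -2.72, -8.63 to -0.72). Pax5 (737 and 783 CPM), Rag1 (70.2 and 92.7 CPM) and Mki67 (842 and 765 CPM) had log2 ratios whose counting intervals include 0. The values of Bach2 and Pax5, genes of the rule, are again shaped by the choice of members. Peaks that differ between the 2 clusters made the split and are not reported.

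**Figure D3:**
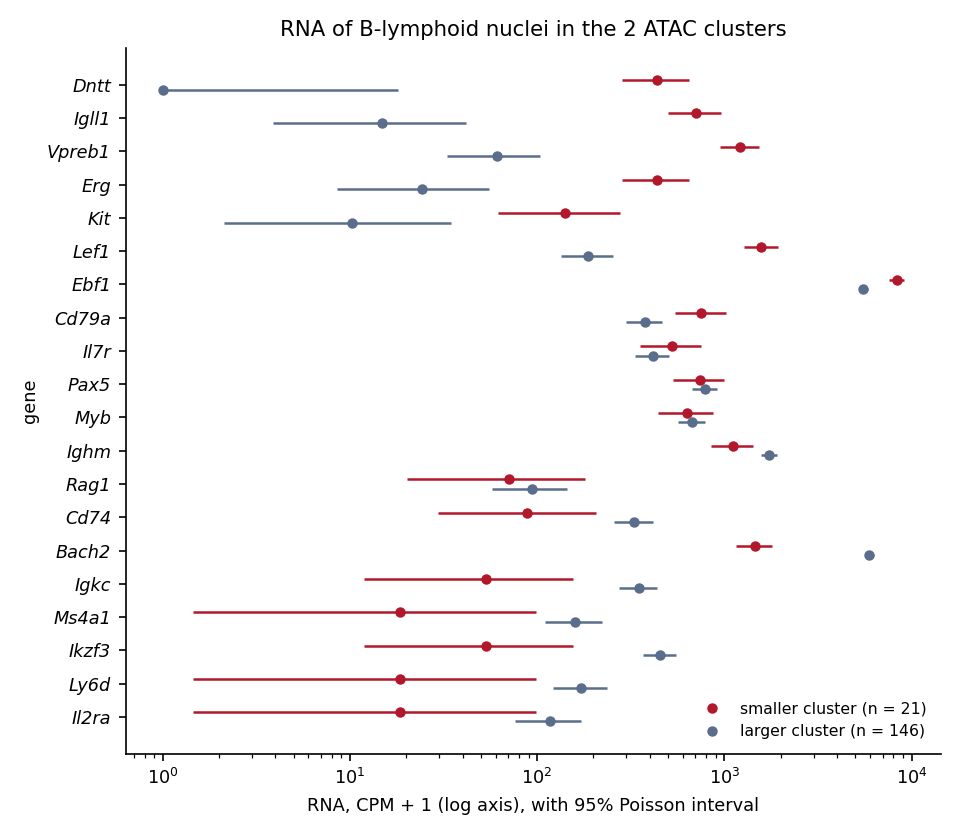
RNA of 20 genes in B-lymphoid nuclei of the smaller ATAC cluster (red, 21 nuclei) and of the larger one (blue, 146 nuclei), as CPM plus 1 on a log axis, with bars for the Poisson 95% interval of the summed UMIs. Dntt, Igll1, Vpreb1, Erg, Kit and Lef1 lie to the right in the smaller cluster, Pax5, Myb and Rag1 overlap, and Bach2, Igkc, Ms4a1 and Ikzf3 lie to the right in the larger cluster. Il7r, Pax5, Ighm and Bach2 are genes of the rule that chose the nuclei.

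The 2 clusters also held 79 barcodes that the RNA rule had not taken. They were shallow (median 699 UMIs) and had a median of 23.8% mitochondrial RNA. Col1a1 stood at 37000 CPM in the 65 of the larger cluster and 14660 CPM in the 14 of the smaller, and tdTomato at 204 and 62.8 CPM, and 5 and 3 of them were among the highest doublet scores. The part of these in the next values was not tested. They carried 0 UMIs of the rule genes in 8 cases, 1 to 3 in 42 and 4 or more in 29. Their B-cell RNA outside the rule was 3397 CPM (3098 to 3717), below the 10350 CPM of the B-lymphoid nuclei and above the 463 CPM (451 to 475) of barcodes in the other clusters that are no members. The rest thus contained some nuclei with B-lymphoid chromatin, and the 7 B-lymphoid nuclei outside the 2 clusters had 6118 CPM (5223 to 7123). Those 7 were deeper than the members in the larger cluster (median 4195 against 1148 UMIs and 85165 against 28782 ATAC counts). They had a median of 24.8% mitochondrial RNA, and 1 of them was among the highest doublet scores.

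Ebf1 is expressed in both B-lymphoid and reticular nuclei, and its peaks were compared between them. RNA was higher in the B-lymphoid nuclei (5761 against 2212 CPM, log2 1.38), whereas accessibility over the whole gene was lower (347 CPM, 333 to 362, against 516 CPM, 508 to 526, in reticular nuclei, log2 -0.57). Of 103 peaks over the gene with at least 20 counts, 13 were at least 2-fold higher in the B-lymphoid nuclei, 55 lower and 35 within 2-fold. At least 8-fold, 6 were higher and 23 lower. The share of all peaks past these folds between the 2 groups was not computed, so the counts cannot be called particular to Ebf1. The peak at the start (chr11:44616759-44617627) was alike in both, with 42.3 and 35.2 CPM. The peak at chr11:44950070-44950872, 333 kb into the gene, had 151 counts in B-lymphoid and 4 in reticular nuclei (log2 7.08), and the one at chr11:44917007-44917930 had 6 and 698.

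**Figure D4:**
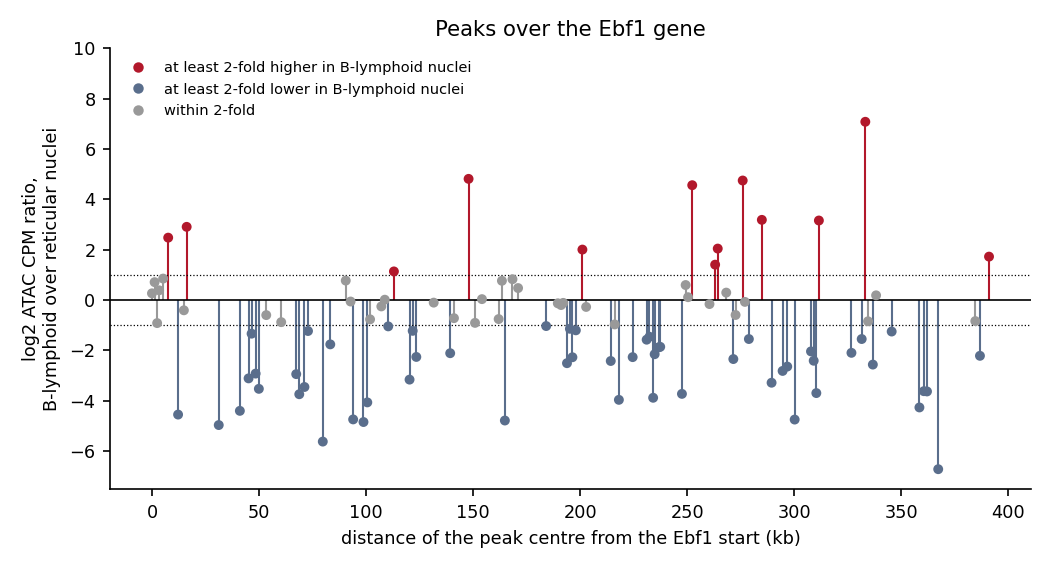
Log2 ratio of ATAC CPM in B-lymphoid over reticular nuclei for 103 peaks over the Ebf1 gene, against the distance of each peak from the gene's start in kb, with dotted lines at 2-fold. Of these, 13 peaks are at least 2-fold higher and 55 lower in B-lymphoid nuclei, and the highest (log2 7.08) lies 333 kb from the start. The same share over all peaks was not computed.

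The central 300 bases of the Ebf1 peak with the highest ratio (GRCm38.p6, chr11:44950321-44950620, + strand) are given because they mark where the B-lymphoid nuclei differed most from reticular nuclei within this gene; capitals mark the E-box CAGGTG and the RUNX letters TGTGGTT on either strand.
Ebf1 intronic peak: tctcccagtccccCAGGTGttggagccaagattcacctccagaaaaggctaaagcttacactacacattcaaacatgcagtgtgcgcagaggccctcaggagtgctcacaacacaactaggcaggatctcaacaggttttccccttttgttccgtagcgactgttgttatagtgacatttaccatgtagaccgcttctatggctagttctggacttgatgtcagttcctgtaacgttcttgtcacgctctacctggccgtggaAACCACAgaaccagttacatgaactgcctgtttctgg

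The 500 peaks with the highest ratio of B-lymphoid nuclei to the rest, out of 42087 with at least 20 counts in the B-lymphoid nuclei, had log2 ratios of 5.25 to 7.16. Of these, 58 lay within 1 kb of a start and 292 over a gene. The kappa V locus held 42 of them. The highest was at chr6:68421729-68422625, 3399 bases from Igkv16-104, with 61 counts in B-lymphoid nuclei and 11 in the rest, 5 of which remained when the 79 barcodes above were left out. The second, at chr18:21675668-21676503, lay 21367 bases from Klhl14, a gene also among the 15 of highest RNA ratio, and had 312 and 104 counts. The third (chr6:68164431-68165076, 146 and 51 counts) lay over the pseudogene Igkv11-114, and the fourth (chr11:45349064-45349962, 116 and 41) was intergenic. The fifth (chr13:99941550-99942433, 68 and 24 counts) lay 40900 bases from the start of Cartpt and the sixth (chr2:79230749-79231621, 105 and 39 counts) 24242 bases from that of Itga4, the integrin chain high in these nuclei.

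Sequence letters were searched in the central 300 bases of the peaks, on both strands. The E2A E-box CAGGTG was in 56.6% (52.1 to 61.0) of the 500 peaks, in 22.4% of all 42072 peaks of the searched chromosomes with at least 20 counts in the B-lymphoid nuclei, and in 13.7% of all 203502 peaks. The EBF letters CCCNNGGGA were in 24.0% (20.3 to 28.0), 10.3% and 6.79%, and the octamer ATGCAAAT, bound by Oct factors, in 9.0% (6.64 to 11.9), 2.11% and 1.60%. Either the E-box or the EBF letters were in 329 of the 500 and both in 74. These shares did not rest on the kappa locus for the first 2 motifs: in the peaks outside it the E-box was in 58.3% and EBF in 24.9%. The octamer was in 16 of the 42 peaks inside it and 29 of those outside (6.33%).

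The other letters differed less between the sets, apart from AP-1. AP-1 (TGANTCA) was in 4.8% (3.10 to 7.06) of the 500 peaks, 10.4% of those with at least 20 counts and 20.4% of all peaks. PU.1 (GAGGAAGT) was in 4.2, 5.99 and 4.08%, the ETS-IRF composite (GGAANNGAA) in 9.2, 9.99 and 9.89%, NF-kB (GGGANNTTC) in 4.4, 4.25 and 4.29%, the letters AGATAA of GATA factors in 11.2, 8.17 and 12.2%, and CEBP (TTGCNNCAA) in 3.0, 2.12 and 2.73%. RUNX (TGTGGTT) was in 12, 9.28 and 13.7% and FOX (TGTTTAC) in 6.4, 3.62 and 5.05%. Against the peaks with at least 20 counts, FOX (4.42 to 8.92) and GATA letters (8.57 to 14.3) were more frequent in the 500 peaks beyond the counting intervals, which was not so against all peaks. The GC content was 48.5% in the 500 peaks, 55.8% in those with at least 20 counts and 48.8% in all, so the first and last of these sets are alike in base composition. A match describes letters in a window, not a site.

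**Figure D5:**
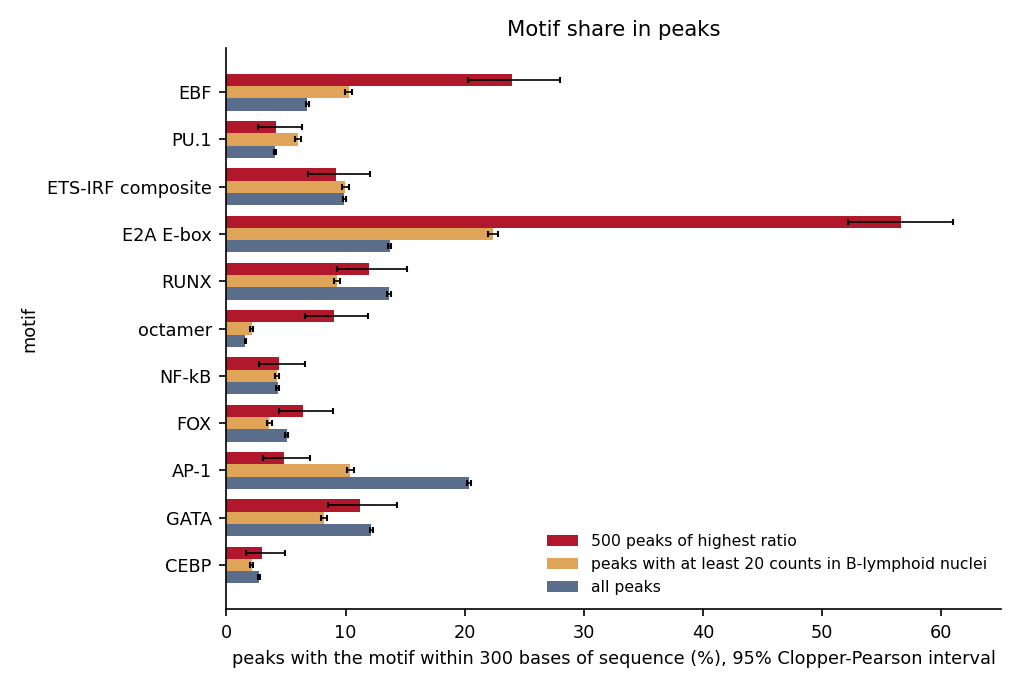
Share of peaks (percent) with each motif in their central 300 bases, for the 500 peaks of highest ratio of B-lymphoid nuclei to the rest (red), peaks with at least 20 counts in B-lymphoid nuclei (orange) and all peaks (blue), with Clopper-Pearson 95% intervals. The E2A E-box reaches 56.6% against 22.4% and 13.7%, EBF and octamer are also highest in the red set, and AP-1 is lowest there.

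Peaks 4, 5, 6 and 10 are printed to show these letters in place (GRCm38.p6, + strand, central 300 bases). Capitals mark the E-box, EBF, octamer or RUNX letters on either strand. The fourth peak in rank (chr11:45349363-45349662) holds the E-box on each strand, the fifth (chr13:99941842-99942141) overlapping EBF matches, and the sixth (chr2:79231035-79231334) the E-box and RUNX. The tenth (chr6:67954570-67954869), chosen after its letters were seen, overlaps the exon of Igkv9-123 and holds the octamer.
Peak 4: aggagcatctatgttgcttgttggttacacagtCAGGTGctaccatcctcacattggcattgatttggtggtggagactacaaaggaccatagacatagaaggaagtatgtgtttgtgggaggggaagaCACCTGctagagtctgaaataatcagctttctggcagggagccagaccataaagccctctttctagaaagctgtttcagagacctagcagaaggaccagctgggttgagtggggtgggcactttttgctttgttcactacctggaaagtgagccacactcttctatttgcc
Peak 5: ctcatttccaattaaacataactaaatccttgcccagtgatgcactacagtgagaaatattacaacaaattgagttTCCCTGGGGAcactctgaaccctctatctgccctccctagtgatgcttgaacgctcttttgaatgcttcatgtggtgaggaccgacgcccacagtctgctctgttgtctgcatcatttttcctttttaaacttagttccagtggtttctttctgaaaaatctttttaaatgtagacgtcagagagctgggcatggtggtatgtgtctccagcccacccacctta
Peak 6: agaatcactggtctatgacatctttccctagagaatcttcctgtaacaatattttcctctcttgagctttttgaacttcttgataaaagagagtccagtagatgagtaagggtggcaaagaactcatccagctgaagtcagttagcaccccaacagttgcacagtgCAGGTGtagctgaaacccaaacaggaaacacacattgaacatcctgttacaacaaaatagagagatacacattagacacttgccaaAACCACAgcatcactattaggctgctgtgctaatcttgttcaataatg
Peak 10: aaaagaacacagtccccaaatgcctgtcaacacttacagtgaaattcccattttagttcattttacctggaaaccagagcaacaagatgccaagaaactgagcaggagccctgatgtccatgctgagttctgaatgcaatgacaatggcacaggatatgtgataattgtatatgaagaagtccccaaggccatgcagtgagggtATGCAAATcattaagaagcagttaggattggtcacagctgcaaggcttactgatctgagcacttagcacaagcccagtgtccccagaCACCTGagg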

How the data were processed

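Nuclei of sorted tdTomato+ femur marrow cells were profiled in 1 multiome library. The authors deposited a matrix of whole-number counts (RNA UMIs per gene and ATAC counts per peak for 728634 barcodes), made with Cell Ranger ARC 2.0.0 per the file headers, on mm10 with the tdTomato-WPRE sequence added. Counts are not normalized. A separate deposited list of 153981 intervals was not used.

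Members, gene lists and comparisons were chosen with earlier results of these data known. Barcodes needed 500 non-mitochondrial UMIs and 1000 ATAC counts. CPM and intervals (exact Poisson, Clopper-Pearson, 95%) came from summed counts. Log2 ratios had 0.5 counts added to each side, and calls needed a 2-fold ratio and, summed over the pair of groups, 20 UMIs. ATAC clusters came from latent semantic indexing (30 components) and Leiden clustering at resolution 1 (scikit-learn 1.9.0, leidenalg 0.10.2, Python 3.11.15). Gene windows followed GENCODE on GRCm38. Scrublet (scanpy 1.11.5) called 1 doublet, 0.022%, and did not work, so the 161 highest scores (0.8% per 1000 barcodes, 7 members) were left out as an alternative only. The scripts were tested on simulated data.

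Named genes were the 7 of the rule, up to 4 of each list with the most UMIs in members (at least 5), the immunoglobulin constant genes, Rag1, Rag2, Dntt, Igll1, Vpreb1, the 15 of highest ratio outside the lists (at least 20 UMIs in 5 members), the 6 leading peaks and tdTomato; 1 gene of this rule is not reported here. Il2ra and others named beside counts were picked after their values were seen. Members in the 2 ATAC clusters alone, the rest without their non-members, and other clustering settings were added after seeing the data.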

Additional observations from a re-analysis of the deposited data

How the results depend on the processing

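The number of B-lymphoid nuclei was 184 with a least share of 0.2% and 150 with 0.6%, 128 with at least 6 UMIs from at least 4 genes, 130 with Pax5, Blnk, Ighm and Cecr2 alone and 167 without the highest doublet scores. It fell most with a minimum of 1000 UMIs (108) and with a mitochondrial limit of 10% (42). B-cell RNA outside the rule, 10349 CPM, was 9018 CPM with a share of 0.2%, 11200 CPM with 0.6%, 11004 CPM with 6 UMIs from 4 genes, 11585 CPM with the 4 genes alone, 12613 CPM with the mitochondrial limit, 12945 CPM scaled without Gm42418 and Malat1, 11846 CPM with free RNA subtracted and 10769 CPM in the members of the 2 ATAC clusters alone. Accessibility of these genes, 3876 CPM, was 3696, 3957, 3931 and 3969 CPM under the same 4 changes of the rule, 3967 CPM without the highest doublet scores, 3938 CPM as a mean of nuclei, 4048 CPM in the 2 ATAC clusters alone and 1265 CPM for peaks within 1 kb of a start, which counts fewer peaks. The number of these genes at least 2-fold higher, 29, was 28 to 30 against the rest and 24 against other blood nuclei. tdTomato RNA ran from 31.6 to 65.5 CPM, inside its counting interval. Where free RNA was subtracted, 226 UMIs of its profile were taken off per nucleus, not the upper share of 25.6%.

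Of 1470 log2 ratios of 105 named genes over 14 alternatives, 9 changed sign where the main value was past 2-fold. Against granulocyte, macrophage and erythroid nuclei in place of the rest these were Dclre1c (-0.38), Il2rg (-0.68), Cd74 (-0.83), Mki67 (-0.47), Cxcl12 (0.22), Lepr (0.19) and Ibsp (0.44). Ngp was 0.37 with a share of 0.2%, and Mpo -1.15 in the 2 ATAC clusters alone. The set compared differs by construction in the first 7, and the other causes were not tested. A further 267 of the 1470 ratios lay outside the counting interval of the main value and 1194 inside it. Such moves were most frequent against other blood nuclei (64 of 105 genes), with the mitochondrial limit of 10% (55) and as a mean of nuclei (54). No paired analysis was possible because each kind of data had 1 library. With 299941 UMIs over all members, a gene without a UMI could still stand at 10.0 CPM.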
